A study of Mus musculus with 12 samples.

Results

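Meis1 and Hoxa9 are transcription factor genes that blood stem cells use to keep dividing without differentiating, and their promoter contacts were followed here in fetal and adult stem cells of the mouse. The members were every listed contact whose promoter name, without a trailing number, was Meis1 or Hoxa9. There were 90 of them, 57 for Meis1 and 33 for Hoxa9, out of 89545 contacts in the whole table. They came from 5 captured promoter fragments: Meis1, Meis1_1 and Meis1_2 on chromosome 11, and Hoxa9 and Hoxa9_2 on chromosome 6.

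The assay was promoter Capture-C, in which cross-linked chromatin is cut with DpnII, ligated, and enriched with probes for chosen promoters, so that sequencing counts how often a promoter was joined to each distal stretch of DNA. Fetal cells were haematopoietic stem cells (HSCs) from the liver of B6129SF1 mice at embryonic day 14.5, and adult cells were HSCs from the bone marrow of B6129SF1 mice aged 6 to 8 weeks. Both populations were sorted as Lin-Sca1+cKit+CD135-, with no genetic change or treatment named. Each had 4 libraries, 2 in each of 2 batches, and 4 further samples of the HPC7 line were not analysed here. All member contacts belonged to the first batch, and each value is pooled over its population, so no value has an error between libraries and no difference between the populations was tested.

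The Meis1 protein is a homeodomain factor of the TALE class, and the Hoxa9 protein is a posterior homeodomain factor of the HOXA cluster. Together with PBX proteins they bind shared sites on DNA, they support self-renewal of stem and progenitor cells, and they are the best known targets of the chromatin protein MLL (Mll1 in the table) in leukaemia. Distal enhancers reach such promoters by folding of the chromatin, which is what a Capture-C contact records.

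An annotated promoter of each gene is shown first, while the member contacts below were read from the captured fragments named above. The sequences are RefSeq's, on GRCm38.p6, from 250 bases before to 50 bases after the annotated start, 5′ to 3′ on the gene's own minus strand, and both members were matched. The Meis1 window is chr11:19018920-19019219 and the Hoxa9 window is chr6:52227321-52227620. The contacts below are on mm9, so these windows were not placed on the captured fragments. Capitals mark matches on either strand to GATC (the DpnII site), TGACAG (a MEIS core), TGATTNAT (a HOX-PBX core), GATAA (the core bound by GATA factors) and GGAAG (an ETS core).
Meis1: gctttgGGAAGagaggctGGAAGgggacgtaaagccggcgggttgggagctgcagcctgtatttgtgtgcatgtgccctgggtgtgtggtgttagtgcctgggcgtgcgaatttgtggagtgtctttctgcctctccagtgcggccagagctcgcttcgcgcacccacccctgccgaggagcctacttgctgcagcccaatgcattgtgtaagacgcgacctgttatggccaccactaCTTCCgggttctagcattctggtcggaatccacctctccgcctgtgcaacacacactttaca
Hoxa9: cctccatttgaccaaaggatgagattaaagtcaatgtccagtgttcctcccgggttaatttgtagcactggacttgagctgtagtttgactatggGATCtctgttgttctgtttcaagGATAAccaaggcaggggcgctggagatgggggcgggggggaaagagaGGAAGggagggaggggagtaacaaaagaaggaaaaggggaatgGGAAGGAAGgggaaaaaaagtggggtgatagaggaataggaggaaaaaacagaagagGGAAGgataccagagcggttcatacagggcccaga
The Meis1 window had 58.3% GC with 15 CG dinucleotides, and the Hoxa9 window 49.7% with 4, against medians of 52.7% and 7 over 32817 RefSeq promoters. The Meis1 window held 3 ETS cores and none of the other motifs. The Hoxa9 window held 4 ETS cores, of which the second and the third overlapped, with 1 GATA core and 1 DpnII site. Over all 32817 promoters, the ETS core was present in 71.4%, the DpnII site in 48%, the GATA core in 25.4%, the MEIS core in 19.2% and the HOX-PBX core in 3.22%. Neither member's window held the MEIS or the HOX-PBX letters.

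On mm9 the Meis1 fragment spanned chr11:18918664-18918890 (227 bp) and Meis1_1 lay directly beside it at chr11:18918891-18920625 (1735 bp). Meis1_2 lay 6473 bp away at chr11:18911296-18912190 (895 bp). Hoxa9 spanned chr6:52180127-52181850 (1724 bp), and Hoxa9_2 lay 3759 bp away at chr6:52175532-52176367 (836 bp). The median fragment of the batch was 717 bp long. Fragments of a gene are therefore separate views of nearly the same place and are not replicates.

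Expression of both genes was deposited as FPKM, 1 value per population, from another assay of the same populations. Meis1 stood at 23.8 in fetal and 52.2 in adult cells for the transcript tied to the Meis1 fragment. The values were 15.7 and 35.3 for Meis1_1, and 18.8 and 41.6 for Meis1_2. Adult FPKM was thus 2.19 to 2.25 times the fetal value, and the authors' deposited table marked all 3 entries as differentially expressed, as it did 35.5% of the 1952 entries of the batch. Hoxa9 stood at 17.8 in fetal and 24.5 in adult cells, and Hoxa9_2 at 19.9 and 26.0. These ratios were 1.38 and 1.31, and neither entry was marked in the authors' deposited table. Adult FPKM was the higher in all 5 member entries and in 51.3% of entries of the batch, whose medians were 8.60 fetal and 10.1 adult.

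The sorted populations were checked for genes of blood stem cells and of other lineages. Of 9 stem and progenitor genes 8 were captured (Kit, Cd34, Flt3, Gata2, Mecom, Hlf, Tal1 and Lyl1), with FPKM of 6.20 to 36.3 in fetal and 3.81 to 57.3 in adult cells. Summed over their 11 entries FPKM was 240.1 in fetal and 320.1 in adult cells, with 9 entries higher in adult cells, as for Meis1 and Hoxa9. Hlf and Mecom gave several of these entries each. Cd34 (36.3 against 26.5) and Flt3 (6.20 against 3.81) were higher in fetal cells. Of 11 genes of other blood lineages or of liver, 4 were captured (Csf1r, Hbb-b1, Itgam and Klf1), and none was at 0. Their summed FPKM was 37.1 in fetal and 3.09 in adult cells, with all 4 higher in fetal cells. Klf1, an erythroid factor, made up most of it at 24.0 against 2.40. Whether the makeup of the sorted populations bears on the Meis1 and Hoxa9 values was not tested.

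A contact was called in a population where its deposited score was above 0, and the smallest score above 0 was 1.3. The score was read as the −log10 of a p-value, which no source states. A score limit of 2.3 is therefore called p 10 times smaller below. Meis1 had 42 fetal and 44 adult calls among its 57 listed contacts, and Hoxa9 had 20 and 24 among 33. Of all contacts listed in the batch, fetal cells called 64.6% and adult cells 61.1%. By fragment, the fetal and adult calls numbered 6 and 6 for Meis1, 30 and 31 for Meis1_1, 6 and 7 for Meis1_2, 7 and 9 for Hoxa9, and 13 and 15 for Hoxa9_2. The batch medians were 11 fetal and 10 adult calls, so Meis1_1 stood above them, while Meis1 and Meis1_2 stood below.

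Of the 57 listed Meis1 contacts, 29 were called in both populations. These were 69.0% of the fetal calls (95% interval 52.9–82.4%) and 65.9% of the adult calls (50.1–79.5%). Another 13 were fetal only and 15 were adult only. Hoxa9 had 11 contacts in both, 55.0% of its fetal (31.5–76.9%) and 45.8% of its adult calls (25.6–67.2%), with 9 fetal only and 13 adult only. Over the batch, 39.8% of fetal calls and 42.1% of adult calls were also called in the other population, which lies below both Meis1 intervals and inside both Hoxa9 intervals. Some Meis1 bins were listed by several fragments. Counting each bin once, an alternative chosen after seeing the data, gave 61.3% of fetal and 59.4% of adult Meis1 calls. Meis1_1 alone had 18 of its 43 listed contacts called in both, or 41.9%, against 25.7% of listed contacts over the batch. These were 60.0% of its fetal calls (40.6–77.3%) and 58.1% of its adult calls (39.1–75.5%). All intervals given here are exact Clopper-Pearson intervals that cover counting error only. Neighbouring bins, and bins listed by several fragments, are not independent.

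Many calls in a single population sat close to the calling limit, for the members as for the batch. Of the 13 fetal-only Meis1 contacts 8 scored within 1 unit above 1.3, as did 8 of the 15 adult-only ones. For Hoxa9 these were 8 of 9 and 11 of 13, against 71.4% of fetal-only and 69.8% of adult-only contacts over the batch.

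The strongest Meis1 contacts formed a run of bins inside chr11:18762001-18800001, 117 to 157 kb from the fragments on the side toward which the gene is transcribed. RefSeq's Meis1 gene on GRCm38 is on the minus strand and 139224 bp long. Calls in bins at most 5 kb apart were taken as a run, and this run of 38 kb held 30 of the 57 listed contacts in 17 bins. It was called 26 times in fetal and 29 times in adult cells, 25 of them in both. Over contacts of the batch at 100 to 200 kb, 28.3% of those listed were called in both populations.

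Within the run, Meis1_1 counted most at the bin chr11:18776001-18778001 in fetal cells, with 86 fetal against 39 adult counts and scores of 88.21 and 28.1. In adult cells it counted most at the neighbouring bin starting at 18774001, with 53 fetal against 65 adult counts and scores of 41.53 and 61.95. The fetal and adult peaks thus lay 1 bin apart. The bin starting at 18780001 had 45 fetal and 19 adult counts, the bin at 18778001 had 35 and 37, and the bin at 18770001 had 23 and 28. The top fetal score of Meis1_1 was exceeded by 171 of the 1952 entries and its top adult score by 135.

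The other fragments had fewer counts at these bins and did not share a direction. At 18776001 the Meis1 fragment counted 14 fetal and 25 adult, and Meis1_2 counted 17 and 15. At 18780001 the Meis1 fragment counted 9 and 15, and Meis1_2 counted 25 and 14. At 18774001 Meis1 counted 16 and 12, and Meis1_2 counted 14 and 22. In all, 5 bins of the gene were contacted by all 3 fragments, 3 bins by a pair and 36 by a single fragment.

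Summed over the run, the 3 fragments had 561 fetal and 547 adult counts, a fetal share of 50.6% (47.6–53.6%). The fetal share was 54.2% (50.6–57.8%) from Meis1_1, with 404 and 341 counts. It was 42.7% (34.4–51.2%) from Meis1, with 61 and 82, and 43.6% (37.0–50.5%) from Meis1_2, with 96 and 124. The promoter of Gm16140, captured at chr11:18908920-18909179 inside the same locus, gave 152 and 182 counts and a share of 45.5% (40.1–51.0%). Contacts of the batch at 100 to 200 kb had a share of 52.4%, and all its listed contacts together had 54.4%. The interval of Meis1_1 included both values, and the intervals of Meis1 and Meis1_2 lay below both.

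**Figure D1:**
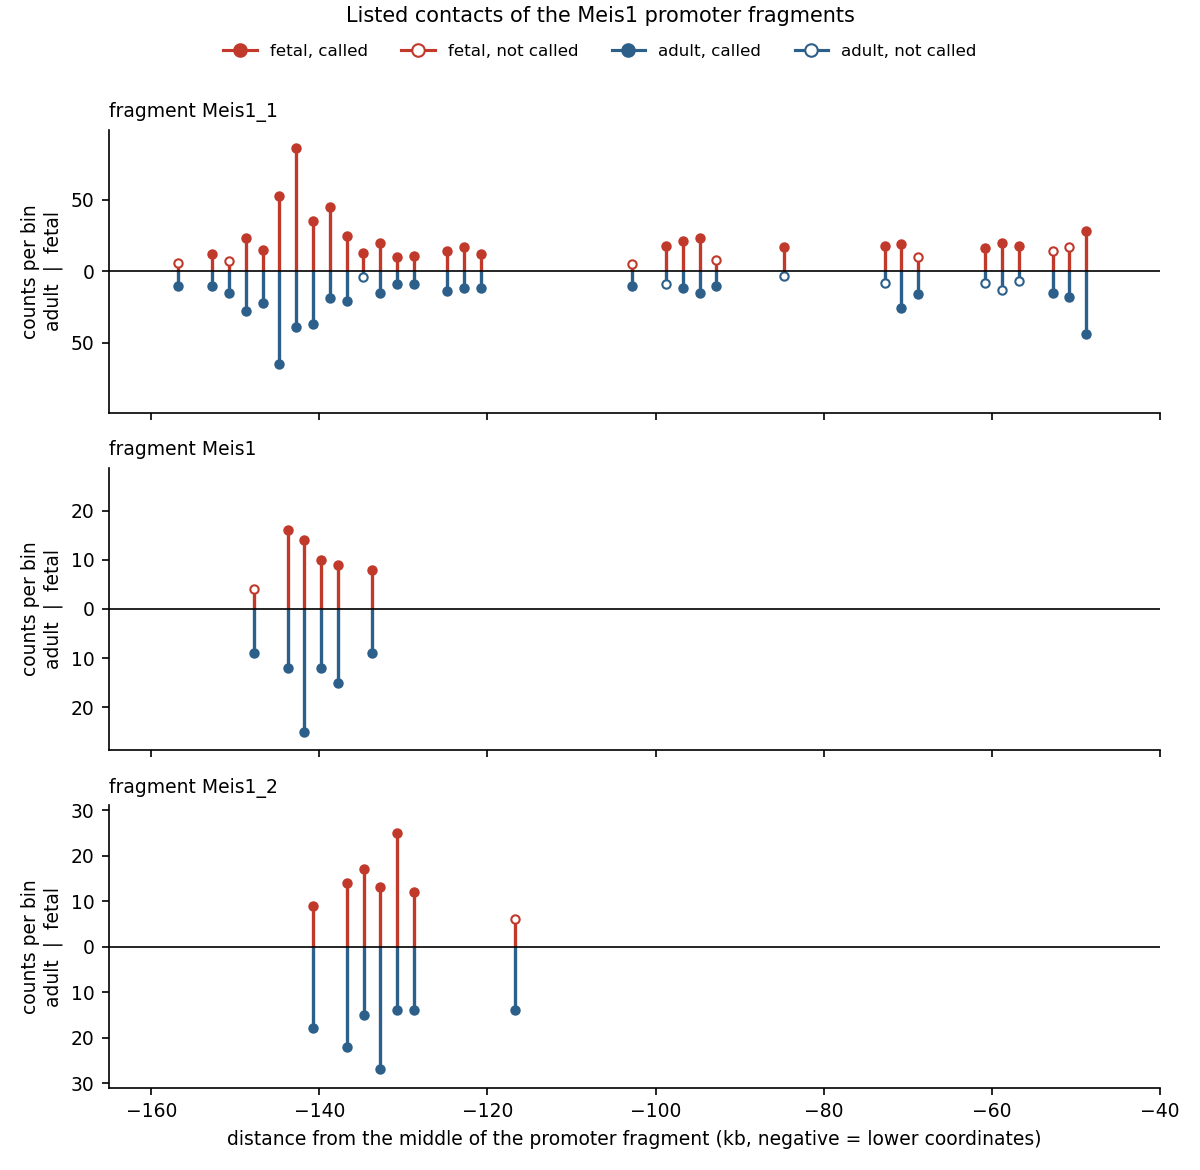
Counts of listed contacts (vertical axis, fetal upward and adult downward) by distance from the middle of each Meis1 promoter fragment (horizontal axis, kb) between 165 and 40 kb on the lower-coordinate side, with filled points for called and open points for not called. All 3 fragments have their tallest lines 130 to 145 kb away, and Meis1_1 reaches 86 fetal and 65 adult counts in neighbouring bins.

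The enhancer marks of the run differed between the populations. A bin is marked as an active enhancer in the authors' deposited annotation as 0 or 1 for each population. Of the 17 bins, 6 were marked in fetal and 10 in adult cells. They comprised 5 in both, 1 in fetal cells only and 5 in adult cells only, leaving 6 in neither. Both bins with the most counts carried the fetal mark, and the bin starting at 18776001 carried the adult mark as well. The 5 bins marked in adult cells only had 128 fetal and 178 adult counts over the 3 fragments, a fetal share of 41.8% (36.2–47.6%). The 5 bins marked in both had 204 and 151 counts, a share of 57.5% (52.1–62.7%). Of these counts, 86 fetal and 39 adult came from a single contact, that of Meis1_1 with the bin starting at 18776001. The bin marked in fetal cells only had 83 and 99, a share of 45.6% (38.2–53.1%), and the 6 unmarked bins had 146 and 119, a share of 55.1% (48.9–61.2%). The counts thus did not run parallel to the marks across these classes. Open chromatin by ATAC was marked in 7 fetal and 9 adult bins of the run.

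Between that run and the promoter, Meis1_1 had further contacts toward lower coordinates, and these were listed for Meis1_1 and for neither of the other Meis1 fragments. The bins of chr11:18816001-18828001 counted 75 fetal and 56 adult, those of chr11:18846001-18852001 counted 47 and 50, and those of chr11:18858001-18872001 counted 113 and 105. Each of these 3 runs held at least 1 contact called in both populations, and the fetal shares of 57.3%, 48.5% and 51.8% all had intervals that included 50%. A single bin at chr11:18834001-18836001 had 17 fetal and 3 adult counts, a share of 85.0%, with a fetal score of 2.82. It had no mark of enhancer or open chromatin in either population. This bin was listed through its fetal call alone. It had the largest fetal excess of the Meis1_1 contacts with at least 10 counts in either population, so its share carries both selections.

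Close to the promoter, adult counts were the higher. At chr11:18916001-18918001, 2.76 kb from the middle of Meis1_1, there were 194 fetal and 263 adult counts, a fetal share of 42.5% (37.9–47.1%). At chr11:18908001-18910001, 10.8 kb away, there were 55 and 93, a share of 37.2% (29.4–45.5%). Both were called in adult cells only, with scores of 2.87 and 2.42. They were thus listed through their adult calls alone, a selection that the intervals do not cover. Contacts of the batch within 20 kb had a fetal share of 52.3%. The bin at 18916001 was marked as an active enhancer and as open in adult cells only, and the bin at 18908001 carried both marks in both populations. Seen from Gm16140, the bin at chr11:18918001-18920001 over the Meis1 and Meis1_1 fragments gave 53 fetal and 90 adult counts. This contact and the one at 18908001 join the same captured places, so it is the same pair read from its other end and no separate observation.

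On the other side of the promoter, toward higher coordinates, Meis1 had 7 contacts 303 to 905 kb away. None was called in both populations, 5 were fetal calls and 2 were adult calls, and their counts were between 0 and 10 in each population. At the far end on the lower side, Meis1_1 contacts 857 and 867 kb away had 0 and 3 fetal against 9 and 8 adult counts. These distant contacts rest on few counts, and their scores were 1.37 to 2.70.

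Hoxa9 contacts all ran toward lower coordinates, where the neighbouring genes Skap2 (an adaptor protein of immune cells), Snx10 (a sorting nexin) and Cbx3 (heterochromatin protein HP1 gamma) are captured. None of the 33 lay on the other side of the cluster. Their median distance was 1045 kb over fetal calls (457–1053 kb) and 665 kb over adult calls (350–1054 kb), against batch medians of 178 and 153 kb. Merging called bins up to 5 kb apart gave 547 and 376 kb, and p 10 times smaller gave 1053 and 1052 kb, so these medians depend on how the far bins are counted. Meis1 had medians of 135 kb (129–141 kb) and 134 kb (129–141 kb).

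The Hoxa9 contacts with the most counts beyond its own cluster lay more than 1000 kb away, in a run of 6 bins at chr6:51118001-51130001. Over the batch, 0.908% of fetal and 1.11% of adult calls reached past 1000 kb, and 2.82% of entries had a contact that far called in both populations. Both Hoxa9 fragments listed all 6 bins, and 10 of the 12 contacts were called in fetal cells, 10 in adult cells and 8 in both. Of the listed contacts of the batch at 1000 to 1100 kb, these included, 50% were called in fetal cells. The shares were 73.4% in adult cells and 23.4% in both. At chr6:51122001-51124001 Hoxa9 counted 32 fetal and 22 adult, with scores of 14.4 and 6.56, and Hoxa9_2 counted 27 and 22, with scores of 10.9 and 7.47. At the bin starting at 51120001 Hoxa9 counted 24 and 25, and Hoxa9_2 counted 31 and 20. At the bin starting at 51124001 Hoxa9 counted 22 and 26, and Hoxa9_2 counted 12 and 25. Fetal counts were the higher at 51122001 and adult counts at 51124001 from both fragments.

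Summed over the far run, Hoxa9 had 127 fetal and 122 adult counts, a fetal share of 51.0% (44.6–57.4%). Hoxa9_2 had 105 and 96, a share of 52.2% (45.1–59.3%). Together they came to 232 and 218, or 51.6% (46.8–56.3%). The far contact therefore had nearly equal counts in the populations. The 154 contacts of the batch at 1000 to 1100 kb had a share of 45.7%. They included these contacts and those of other HOXA promoters with the same run, so they are no separate background.

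The same far run was contacted by other promoters of the HOXA cluster and by genes between. Hoxa10, the next gene of the cluster among those captured, gave 77 fetal and 115 adult counts, a share of 40.1% (33.1–47.4%), and Hoxa10_1 gave 50 and 70, or 41.7% (32.7–51.0%). The 3 fragments of Hoxa7 gave 47 and 34, 56 and 51, and 47 and 39. Hoxa3_1 gave 60 and 62. Cbx3, whose fragment lies 296 kb from the run, gave 34 and 33, and Skap2, 839.8 kb away, gave 29 and 31. The Hoxa10 interval lay below 50% and those of both Hoxa9 fragments included it, and the difference between the promoters was not tested.

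**Figure D2:**
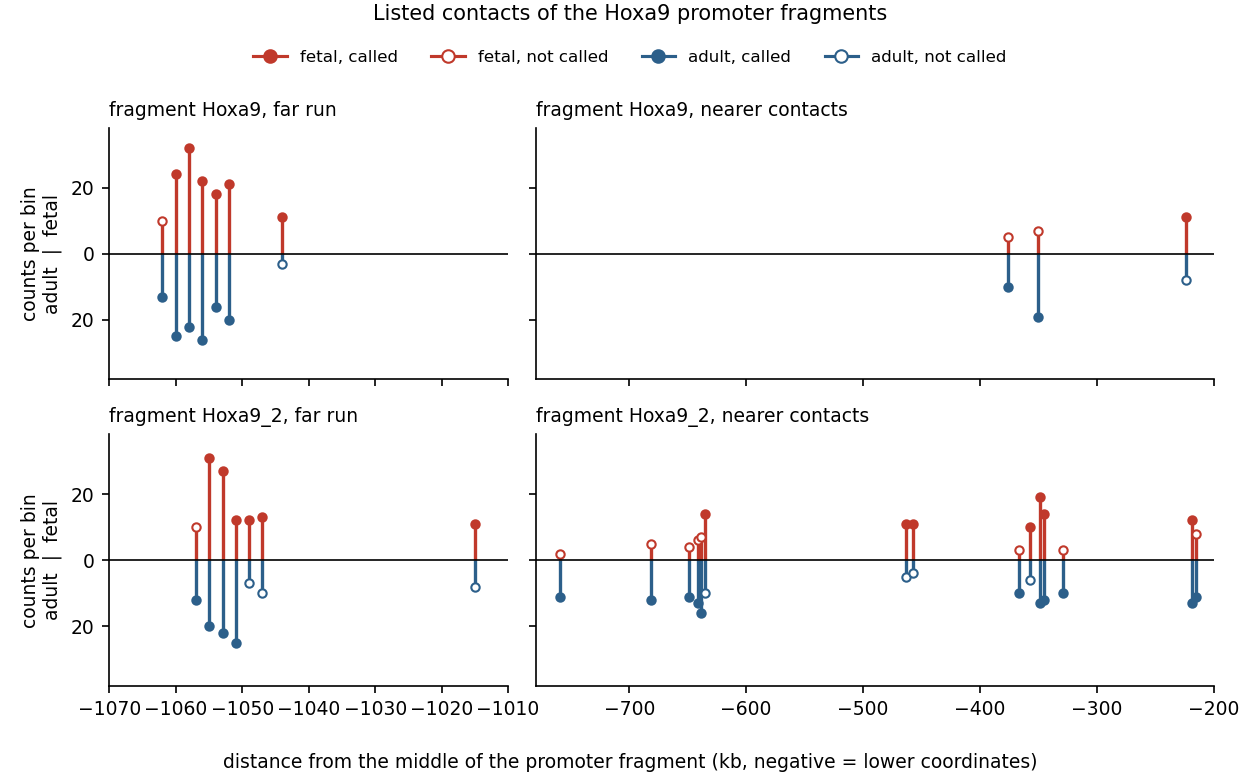
Counts of listed contacts (vertical axis, fetal upward and adult downward) by distance from the middle of each Hoxa9 promoter fragment (horizontal axis, kb; left panels the far contacts, right panels the nearer ones), with filled points for called and open points for not called. The far run reaches 32 fetal counts from Hoxa9 and 31 from Hoxa9_2, above every nearer contact drawn, and the contact inside the cluster at 3.99 kb is left out.

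**Figure D3:**
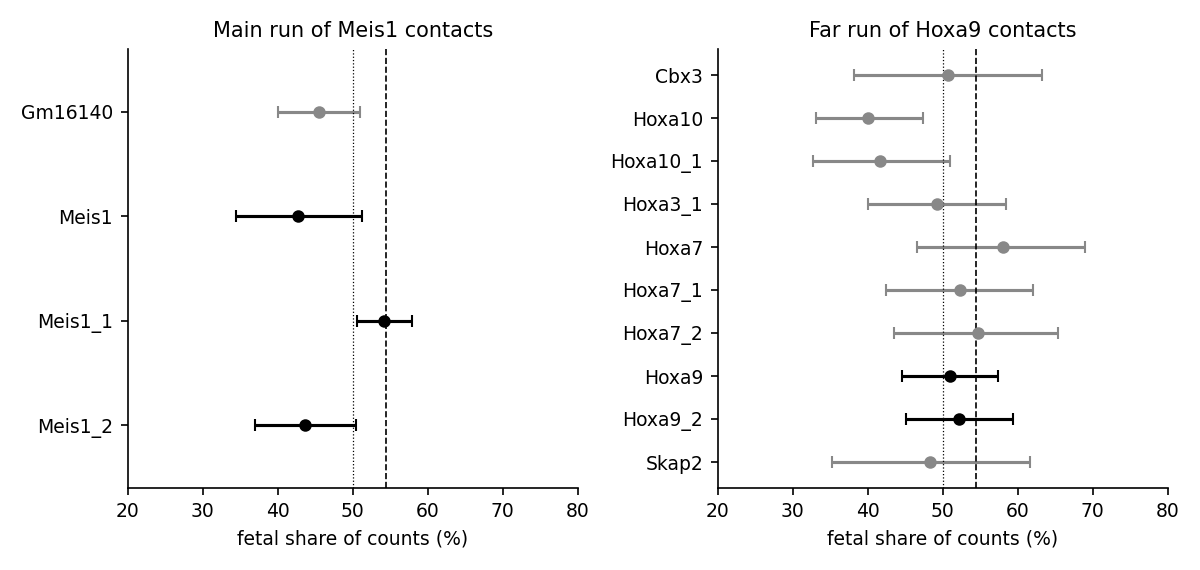
Fetal share of the counts (horizontal axis, percent) of each promoter fragment with at least 50 counts in the main Meis1 run (left) and the far Hoxa9 run (right), with exact 95% intervals, a dotted line at 50% and a dashed line at the 54.4% of the whole batch. Member fragments are black and other promoters grey. Meis1_1 sits at 54.2%, and Meis1 and Meis1_2 at 42.7% and 43.6%.

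Of the 6 bins of the far run, 4 were marked as active enhancers in fetal cells and 2 in adult cells, both of the latter among the 4. Open chromatin was marked in 5 bins in fetal and in all 6 in adult cells. The bins marked in fetal cells only, starting at 51122001 and 51124001, had 93 fetal and 95 adult counts over both fragments. The bin starting at 51128001 was marked as a poised enhancer in fetal cells only. Poised enhancers are a class usually defined by an enhancer mark together with a repressive one.

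Between the far run and the cluster, the contacts of Hoxa9 were weaker and came mostly from Hoxa9_2. At chr6:51826001-51832001, 135 kb from the Skap2 fragment, Hoxa9_2 had contacts in 2 bins, with 19 fetal and 13 adult counts and with 14 and 12, both called in both populations. Hoxa9 had a contact in the second of these bins alone, with 7 and 19 counts, called in adult cells only with a score of 5.09. At chr6:51956001-51962001, beside the Skap2 fragment, the sums were 31 and 32. At chr6:51712001-51720001 Hoxa9_2 had 22 and 9 and was called in fetal cells only, with a share of 71.0%. Its bins were listed through their fetal calls alone, so this share carries that selection. From 500 to 1000 kb Hoxa9 had 1 fetal and 5 adult calls, all from Hoxa9_2 and none in both populations. They had 38 and 73 counts, a fetal share of 34.2%, against 51.0% over the batch at that distance. Each of these contacts was listed through a call in a single population, so the share carries that selection and cannot measure a difference.

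Inside the cluster, Hoxa9 contacted the bin chr6:52176001-52178001, which overlaps the Hoxa9_2 fragment, with 242 fetal and 237 adult counts. It was called in adult cells with a score of 1.37 and not in fetal cells. These nearly equal counts fell on different sides of the limit.

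Bins over the Hoxa9 fragments were also listed by promoters of other genes. No listed Hoxa9 contact had a bin overlapping the Cbx3 or the Skap2 fragment. These pairs were therefore listed from the end of the other promoter only. Cbx3 listed the bin chr6:52174001-52176001 over Hoxa9_2 with 11 fetal and 31 adult counts and scores of 3.74 and 24.2, and the bin chr6:52180001-52182001 over Hoxa9 with 12 and 7. Skap2 listed the same bins with 24 and 26, and with 21 and 11. Tax1bp1, captured on the other side of the cluster, listed the bin over Hoxa9 with 11 and 12 counts, although neither Hoxa9 fragment listed a contact on that side. Read from Cbx3 and Skap2, adult counts were the higher over Hoxa9_2 and fetal counts over Hoxa9, an order that was not tested.

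Distal bins of both genes were marked as active enhancers more often than the batch at large. For Meis1 19 of 42 fetal calls were so marked in fetal cells, 45.2% (29.8–61.3%), and 26 of 44 adult calls in adult cells, 59.1% (43.2–73.7%). For Hoxa9 they were 13 of 20, 65.0% (40.8–84.6%), and 13 of 24, 54.2% (32.8–74.4%). Over the batch these shares were 12.7% of fetal and 13.1% of adult calls. Open chromatin covered 52.4% and 61.4% of fetal and adult Meis1 calls and 65.0% and 83.3% of Hoxa9 calls, against 53% and 54.6%. The enhancer share of the batch lay below all 4 member intervals. The open-chromatin share of the batch lay below the interval of adult Hoxa9 calls (62.6–95.3%) and inside the other 3.

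Counted once per bin, 25 of the 44 Meis1 bins were active enhancers in either population, or 56.8% (41.0–71.7%), as were 15 of the 25 Hoxa9 bins, or 60.0% (38.7–78.9%), against 15.3% of the 41344 bins of the batch. Of the Meis1 bins 14 were marked in both populations, 2 in fetal cells only and 9 in adult cells only. The adult-only bins made up 20.5% (9.80–35.3%), against 3.11% of bins of the batch. The Hoxa9 bins were balanced, with 9 in both, 3 fetal only and 3 adult only.

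Few calls met an active promoter. Meis1 had 0 of 42 fetal and 0 of 44 adult calls there, with upper limits of 8.41% and 8.04%, while Hoxa9 had 1 of 20 fetal calls (5.00%, 0.127–24.9%) and 1 of 24 adult calls (4.17%, 0.105–21.1%). Over the batch 15.6% of fetal and 18.3% of adult calls did so, above the Meis1 limits and inside the Hoxa9 intervals. Poised enhancers were met by 3 fetal Hoxa9 calls (15.0%, 3.21–37.9%) and by no other member call, with 0.713% of fetal and 0.314% of adult calls over the batch. Primed enhancers were met by 2 adult Meis1 calls and no fetal call of either gene, with 1.77% of fetal and 1.36% of adult calls over the batch. Bivalent promoters were met by no member call, with 1.52% and 0.724% over the batch.

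**Figure D4:**
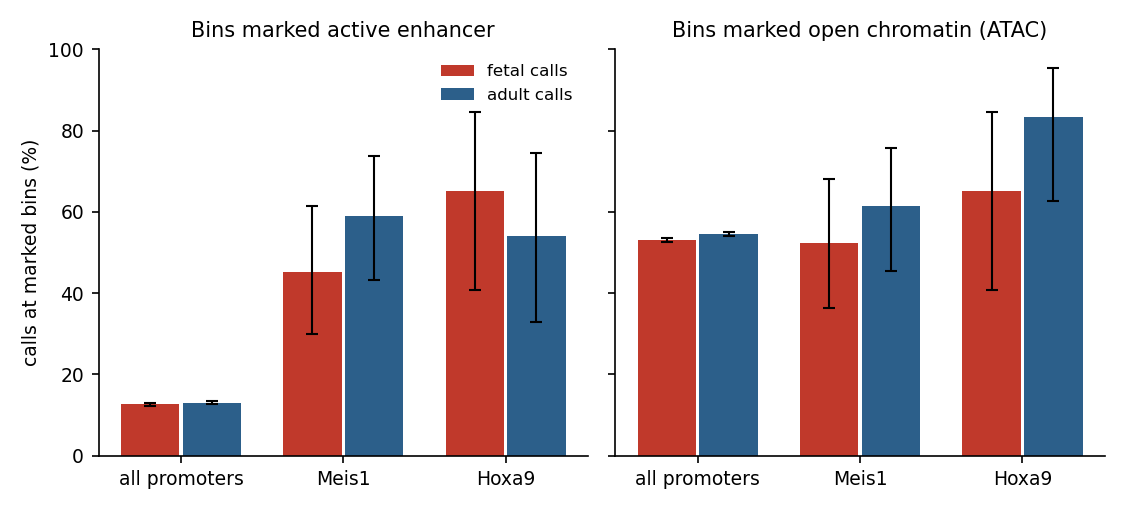
Share of calls (vertical axis, percent) at bins marked as active enhancers (left) and as open chromatin (right) for all promoters of the first batch, Meis1 and Hoxa9, with exact 95% intervals as error bars covering counting error only. The enhancer shares are 45.2% to 65.0% for the members and 12.7% to 13.1% for all promoters, and the open-chromatin shares overlap those of all promoters except for adult Hoxa9 calls.

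Over single contacts, fetal counts were the higher in 26 and adult counts in 29 of the 57 Meis1 contacts, with 17 and 16 of the 33 Hoxa9 contacts. Over the batch 53.3% of contacts had more fetal and 43% more adult counts. The median log2 ratio of fetal to adult counts, after 1 was added to each, was -0.08 for Meis1 and 0.03 for Hoxa9, with 0.15 over the batch. Relative to the batch the medians were -0.23 and -0.12. Dividing by the batch totals moved the median of the batch by -0.23, which turned the Hoxa9 value to -0.23, so the sign of these medians depends on the scaling. Relative to the batch the scaled values were -0.24 and -0.14. Summed counts over all listed contacts were 1119 fetal and 1170 adult for Meis1, a fetal share of 48.9% (46.8–51.0%), and 648 and 660 for Hoxa9, a share of 49.5% (46.8–52.3%). Both intervals included 50% and lay below the 54.4% of the batch. Without contacts of 1000 or more counts the batch stood at 52.2%, above the Meis1 interval and inside the Hoxa9 interval. Of the Meis1 sum, 249 fetal and 356 adult counts came from 2 contacts within 20 kb, both called in adult cells only. The fetal share of Meis1 was 54.8% at 20 to 100 kb and 50.6% at 100 to 200 kb. It was 63.4% at 200 to 500 kb and 39.7% at 500 to 1000 kb, on few counts.

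**Figure D5:**
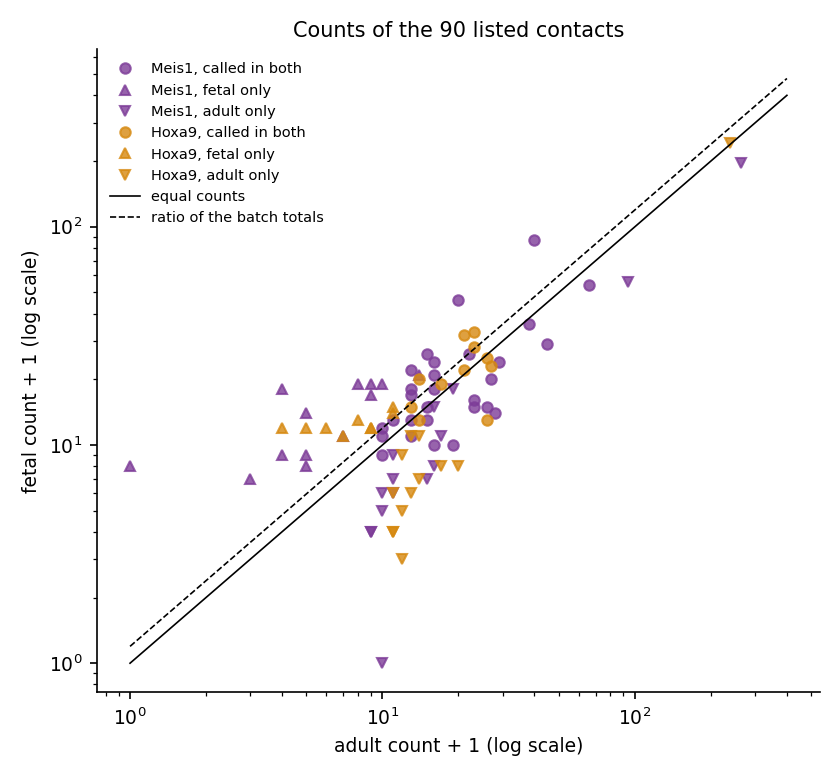
Fetal count plus 1 (vertical axis, log scale) against adult count plus 1 (horizontal axis, log scale) for the 90 listed contacts, coloured by gene and shaped by the population that called them, with a solid line at equal counts and a dashed line at the ratio of the batch totals. Contacts called in both populations lie along the lines, and those called in a single population have mostly under 20 counts.

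Some of the bins were also listed for promoters of other genes. These were 20 of the 25 Hoxa9 bins and 14 of the 44 Meis1 bins, the latter all for Gm16140, against 34.1% of the pairs of gene and bin in the batch. Among 29 genes of the HOX, TALE, PBX and MLL group 9 were captured, with 14 entries. The entries of Pbx2 and Pbx3 came from the second batch and the others from the first. Of the 14 entries 5 had more fetal calls, 7 more adult calls and 2 equal numbers. Of first-batch entries 48.1% had more fetal and 42.1% more adult calls. Hoxa3_1 had 20 fetal and 39 adult calls, Hoxa10 had 9 and 16, Hoxa7 had 17 and 9, and Mll1 had 11 and 5. FPKM was higher in adult cells for 13 of the 14 entries, against 51.3% of first-batch entries. It was higher in fetal cells for Pbx2, a partner of both proteins, at 17.2 against 10.7. The authors' deposited table marked 4 of the 14 entries as differentially expressed, against 35.5% of first-batch entries. The median log2 ratio of fetal to adult calls was -0.08 over the 14 entries and 0 over all entries.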

How the data were processed

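The deposited table lists significant promoter Capture-C contacts with 2 kb distal bins on mm9. The submitters' processing notes name mm9, Trim Galore 0.41 and Bowtie2 2.2.2 without their roles. Read filters, duplicate removal and whether libraries were summed or averaged are not given in the sources used here. The authors deposited, per population and batch, a count per contact, a score per contact (0 where not called; no source states its scale), and 0 or 1 marks per bin. The authors also deposited FPKM values per promoter, made from another assay by steps not given in the sources used here. All value columns are, per the file headers, pooled columns.

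Here, members were selected by name, distances ran from fragment middle to bin middle, and called bins at most 5 kb apart were joined into runs. Backgrounds by distance left out contacts with 1000 or more counts. The batch totals were 1312829 fetal and 1098957 adult counts over listed contacts, which are not library depths. Shares have exact Clopper-Pearson 95% intervals and medians order-statistic intervals, both for counting error only. No test was possible without values per library. Every member entry is described; contacts were named by score, distance and count ratio, or as part of a run. A further gene of the marker list is not reported here. Members, gene lists and runs were chosen with earlier results of these data known. Calculations used Python 3.11.15, pandas 2.3.3, numpy 2.4.6 and scipy 1.17.1, and helper functions were tested on simulated data. Alternatives covered the score limit, merging, distance, matching, scaling, pseudocount, count filter and marks.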

Additional observations from a re-analysis of the deposited data

How the results depend on the processing

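Of 80 alternative values over 22 results, 58 stayed within 1.5 times (counts) or inside the interval of the reported value, 20 moved further and 2 reversed. With p 10 times smaller, Hoxa9 kept 10 fetal and 12 adult calls, called in both populations for 90% and 75%, with a fetal median of 1053 kb and 90% and 100% of fetal and adult calls at open chromatin, and 82.8% of fetal Meis1 calls were called in both. Merging called bins up to 5 kb apart left 14 fetal and 13 adult Meis1 calls and 10 and 13 Hoxa9 calls. Matching within 20 kb raised the overlap to 88.1% of fetal and 88.6% of adult Meis1 calls and to 80% and 79.2% of Hoxa9 calls, and matching within 5 kb raised it to 84.1% of adult Meis1 calls. Under the marks of the other population, 40.9% of adult Meis1 calls and 40% of fetal Hoxa9 calls were at active enhancers. Scaled by the batch totals, the median log2 ratio was -0.32 for Meis1 and -0.23 for Hoxa9, the latter reversed. Counting each bin once, an alternative chosen after seeing the data, turned the Meis1 median to 0.11. The cause of these moves was not tested. No paired analysis was possible because each population has a single pooled value in a batch, and for the same reason no replicate could be left out. Many contacts called in a single population scored near the calling limit, and such a call there does not show a difference.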
